A study of Arabidopsis thaliana with 8 samples.

Results

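Cell wall genes of Arabidopsis thaliana were followed on 2-colour arrays that set plants overexpressing the LAMMER-type protein kinase PK12 against non-transformed plants. The members are the genes measured by an expressed sequence tag (EST) of a single gene whose symbol begins with 1 of 19 cell wall prefixes (GH9, XTH, XTR, EXP, EXL, PME, PAE, TBL, GAUT, GATL, CSL, CESA, IRX, FLA, AGP, BGAL, BXL, RGP or KOR), with the exostosin family gene AT5G25820 added by name. They are 23 of the 3525 named genes. One of them, PMEAMT, begins with PME but encodes an N-methyltransferase of membrane lipid synthesis, so 22 cell wall genes remain. Only 7 of the prefixes had a member. No gene named XTR, PAE, GAUT, GATL, CESA, IRX, FLA, AGP, BGAL, BXL, RGP or KOR was found by the rule, and cellulose synthases and structural wall proteins were therefore not analysed here. Of the named genes on the 10-day arrays, 84.5% carry only a locus code as their symbol, so wall genes without a family symbol lie outside the rule.

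The primary wall of a growing plant cell is a network of cellulose tied to xyloglucan and mannans and embedded in pectin. Its polymers other than cellulose are made and acetylated in the Golgi by glycosyltransferases and acetyltransferases, while secreted proteins such as expansins, xyloglucan endotransglucosylases, endoglucanases and pectin methylesterases loosen or stiffen it afterwards. Many of these genes belong to large families whose members are used in different organs and cell types.

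On each of the 8 arrays, RNA of non-transformed plants was labelled as channel 1 and RNA of PK12 overexpressors as channel 2. Plants had grown under long days for 10 days on arrays 56, 57, 60 and 61, and for 21 days on arrays b100, b90, t100 and t90, which are of another type with fewer ESTs. The labels give 4 arrays and 2 independent biological experiments for each age without saying which arrays share an experiment, so p-values measure a spread that is partly technical. The sources used here do not give the promoter of the transgene or the number of lines. The value of a gene is the log2 ratio of the channels, centred on the median of its array and averaged over the ESTs of the gene. Neither the dyes nor the numerator is stated, so each gene is given by the sign of its ratio, as positive or negative, and not as raised or lowered. A positive ratio stands for more transcript in the overexpressors if channel 1 was the denominator, and for less if it was the numerator. Spot brightness is not in the files used here, so precision is set by the 4 arrays of an age.

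Of the 8 marker loci listed for tissues, 4 were measured. At 10 days the green tissue genes RCA and PRK lay on the negative side on every array (-2.49 to -1.22 and -2.09 to -0.86), the root gene PYK10 lay between -0.41 and -0.11, and the seed storage gene PAP85 read 0.73 and 1.23 on arrays 56 and 57 against 4.70 and 4.85 on arrays 60 and 61. At 21 days all 4 had means between -0.18 and 0.44. Whether a different share of organs contributed to the ratios of the wall genes was not tested, and in whole plants fewer cells of a type cannot be told apart from less RNA per cell.

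The first comparison was that of PK12 plants with non-transformed plants at 10 days. A pectin methylesterase and a cellulose synthase-like gene of the D group passed the test on the positive side, and a mannan synthase-like gene, a xylan acetyltransferase-like gene and an expansin on the negative side. These were PMEPCRF at a log2 ratio of 1.22 ± 0.12, CSLD2 at 1.13 ± 0.39, CSLA03 at -1.01 ± 0.37, TBL28 at -0.97 ± 0.47 and EXPA9 at -0.89 ± 0.49 (SD, n = 4 arrays). In limma 5 of 21 genes passed at a Benjamini-Hochberg adjusted p under 0.05, AT5G25820 being left out because it was chosen by its ratio at this age. Among all 3523 genes tested 13.0% passed, 8.03% with a positive and 5.0% with a negative ratio. At an unadjusted p under 0.05 there were 9 of the 21, against 32.1% of all genes. The count fell to 1 or 2 when any array was left out, and the list was proposed with results of these arrays known. All 4 arrays had 1 sign for 9 of the 21 genes (42.9%), against 39.7% of all genes; 5 were positive and 4 negative, where 22.7% and 17.0% of all genes were.

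**Figure D1:**
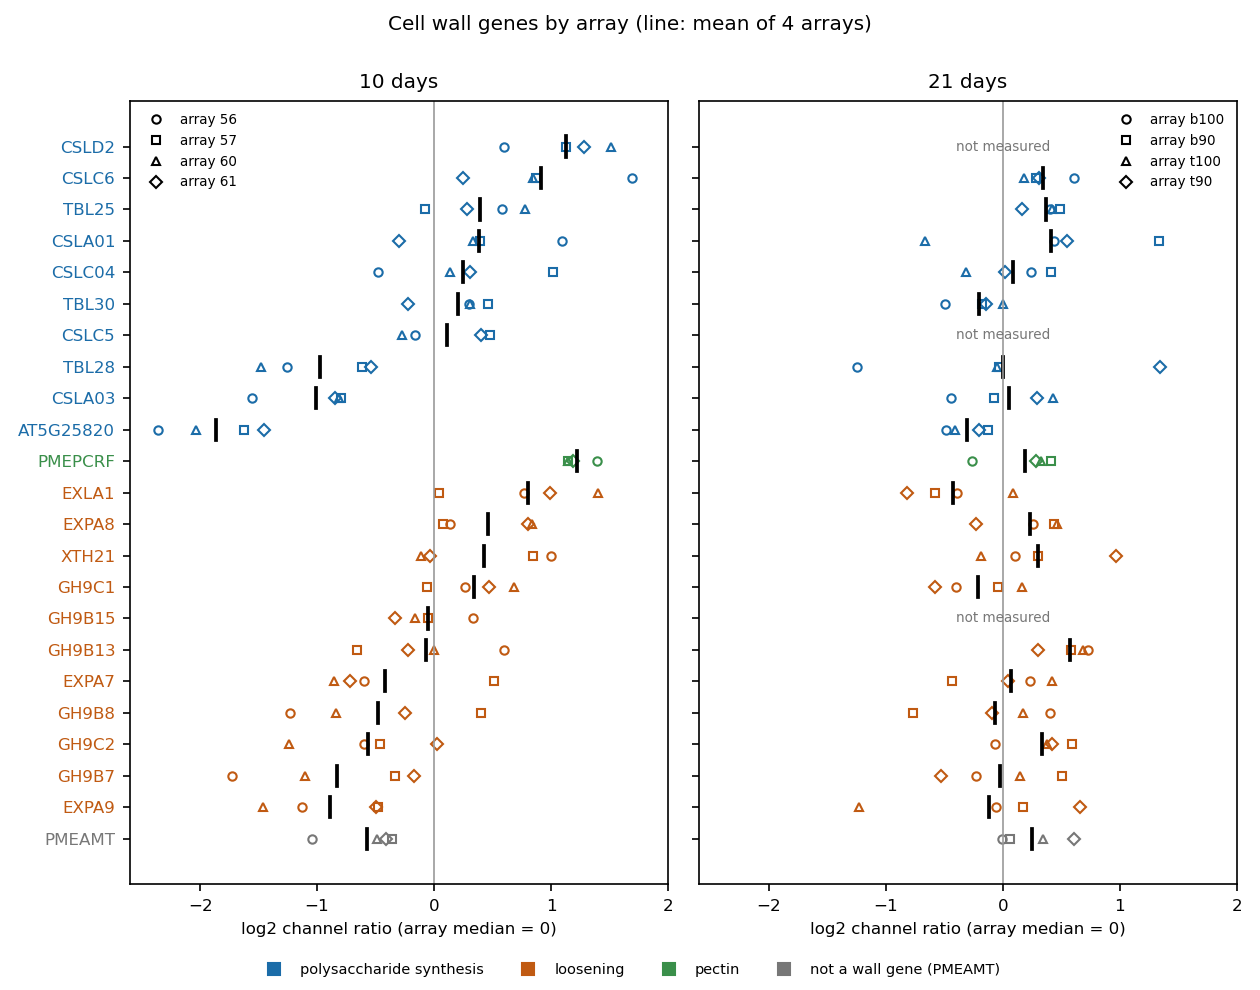
Log2 channel ratio (horizontal axis, array median at 0) of each cell wall gene on each array, at 10 days on the left and at 21 days on the right; open symbols are arrays, black lines the means of 4 arrays, and colours the roles. PMEPCRF reads between 1.14 and 1.40 on the 10-day arrays, TBL28 and CSLA03 lie wholly below 0 there, and at 21 days most genes straddle 0.

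PMEPCRF encodes a pectin methylesterase, an enzyme that removes methyl groups from the homogalacturonan of pectin. Its log2 ratio was 1.40, 1.14, 1.15 and 1.19 on arrays 56, 57, 60 and 61, the narrowest spread among the wall genes. This is the spread of a mean of 2 ESTs, whose own SDs were 0.19 and 0.38, while most wall genes rested on 1 EST. All 4 arrays stood well away from equal channels, the mean being 2.33-fold (limma adjusted p = 0.00967). It was the member whose call was kept whichever array was left out (adjusted p from 0.0291 to 0.0405), and its 2 ESTs each passed in the test on ESTs.

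Among the enzymes of polysaccharide synthesis, the cellulose synthase-like (CSL) genes did not share a side. CSLD2, a glucan synthase of the CSLD group that root hairs need to grow, read 0.60, 1.13, 1.52 and 1.28 on the 4 arrays (limma adjusted p = 0.0180). Its lowest value was on array 56. The call held without array 56 (adjusted p = 0.0398) and missed the threshold without any of the other arrays (0.0543 to 0.0583).

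The CSLA genes belong to a group of mannan and glucomannan synthases, and 2 were measured. CSLA03 read -1.56, -0.80, -0.81 and -0.85 (limma adjusted p = 0.0216), with array 56 apart from 3 arrays that nearly coincide. CSLA01 ran from 1.10 on array 56 to -0.30 on array 61, with a mean of 0.38 ± 0.57 (adjusted p = 0.324). Each of the 4 values of CSLA01 was above each of those of CSLA03. How often 2 genes separate in this way among all genes was not counted, so no conclusion is drawn from it. CSLA03 no longer passed when any array was left out (adjusted p from 0.0533 to 0.0636).

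The CSLC genes make the glucan backbone of xyloglucan. CSLC6 read 1.70, 0.87, 0.84 and 0.25, above 0 on every array, and missed the threshold in the test on genes (mean 0.92 ± 0.59, limma adjusted p = 0.0541). The same single EST passed in the test on all ESTs (adjusted p = 0.0483) and in 5 of 13 alternatives to the test on genes, so its call depends on the processing. CSLC04 had a mean of 0.25 ± 0.61 and CSLC5 of 0.11 ± 0.38, and both had arrays on either side of 0.

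The trichome birefringence-like (TBL) genes encode acetyltransferases of wall polysaccharides, TBL28 and TBL30 acting on xylan and TBL25 on mannan. TBL28 read -1.26, -0.62, -1.48 and -0.54 (limma adjusted p = 0.0315), further from 0 on arrays 56 and 60 than on 57 and 61. Its call did not survive leaving out any array (adjusted p from 0.0544 to 0.107). TBL30 is the next protein-coding gene to TBL28 on the chromosome in the TAIR10.1 annotation, and it read 0.30, 0.46, 0.30 and -0.23 (mean 0.21 ± 0.30, adjusted p = 0.467). The highest array of TBL28 was at -0.54 and the lowest of TBL30 at -0.23. Such pairs were again not counted among all genes, and no conclusion is drawn from this one. TBL25 had a mean of 0.39 ± 0.37 (adjusted p = 0.210), which averages 3 ESTs that differ, as described below.

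AT5G25820 encodes a protein of the exostosin family, which in plants holds glycosyltransferases of several wall polymers; its own product is not named in the files. It was put on the list for its negative ratio at 10 days, so its values there are given without a test. It read -2.36, -1.62, -2.04 and -1.45, or 3.64-fold from equal channels on average.

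The GH9 genes encode endoglucanases that cut beta-1,4-glucans. Of the 6 that were measured, 0 passed in limma over genes and 5 had means below 0, as had 1653 of all 3523 genes. GH9B7 was the lowest, with -1.73, -0.33, -1.10 and -0.17 on the 4 arrays (mean -0.83 ± 0.72, adjusted p = 0.0929). GH9C2 at -0.57 ± 0.52 and GH9B8 at -0.48 ± 0.71 each had 1 array above 0. GH9B13 and GH9B15 had means of -0.07 and -0.05, which ran up to 0.13 and 0.04 with an array left out. GH9C1, an endoglucanase known from root hairs, had a mean of 0.34 ± 0.32 (limma adjusted p = 0.247). Once a local median, taken over ESTs with nearby array identifiers, was subtracted, GH9B7 and GH9C2 passed (adjusted p = 0.0318 and 0.0396) and the mean of GH9C1 turned to -0.02.

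Expansins loosen the wall without cutting its polymers, and 4 genes of expansins and expansin-like proteins were measured. EXPA9 read -1.13, -0.48, -1.46 and -0.49 (limma adjusted p = 0.0421), and, as for TBL28, arrays 56 and 60 were the lower ones. It lost the call when any array was left out (adjusted p from 0.0642 to 0.135), and with arrays 56 and 60, and 57 and 61, as random blocks (0.0655). The expansin-like gene EXLA1 was above 0 on every array at 0.77, 0.05, 1.41 and 0.99 and did not pass (mean 0.80 ± 0.57, adjusted p = 0.0676). EXLA1 and EXPA9 had the highest and lowest means of the 4. Their arrays did not overlap, which says little for a pair picked by its values, and such pairs were not counted among all genes. EXPA8 had a mean of 0.46 ± 0.42, its values on arrays 60 and 61 (0.84 and 0.81) standing above those on 56 and 57 (0.13 and 0.08), the same arrays on which PAP85 was high; a link with PAP85 was not tested. EXPA7, an expansin of root hairs, read 0.51 on array 57 and between -0.86 and -0.60 on the other arrays. XTH21, a xyloglucan endotransglucosylase/hydrolase, divided the arrays the other way, at 0.998 and 0.85 on arrays 56 and 57 against -0.11 and -0.03 on 60 and 61 (mean 0.42 ± 0.58).

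PMEAMT, the methyltransferase that shares its prefix with the pectin methylesterases, had a mean of -0.57 ± 0.31 (limma adjusted p = 0.0781).

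Set by role, the 9 synthesis genes without AT5G25820 had a median log2 ratio of 0.25 at 10 days, with 1 positive and 2 negative calls. The 11 loosening genes had a median of -0.07, with 0 positive and 1 negative call, and PMEPCRF was the lone pectin gene. Over all genes the median was 0.04, with 8.03% called positive and 5.0% negative. On single arrays the synthesis median ran from 0.25 to 0.46 and the loosening median from -0.17 to 0.13. With PMEPCRF counted in, the loosening median ran from -0.14 to 0.20. These ranges lay apart only while AT5G25820 was left out. With it the synthesis median ran from 0.01 to 0.43 and overlapped that of loosening. How often groups of this size separate among all genes was not counted, so no difference between the roles can be concluded. Both roles held genes on either side, from -1.01 to 1.13 for synthesis and from -0.89 to 0.80 for loosening. The median size of the mean was 0.46 over the 21 genes and 0.32 over all genes, and the median SD between arrays 0.49 against 0.39; the difference was not tested. Across genes on single arrays, the SD of the 22 wall genes was above that of all genes on arrays 56, 60 and 61 and below it on array 57 (0.709 against 0.728). These 22 include AT5G25820, whose values of -2.36 to -1.45 were the ground for its choice and widen the SD. No conclusion about the wall genes can be drawn from it.

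**Figure D2:**
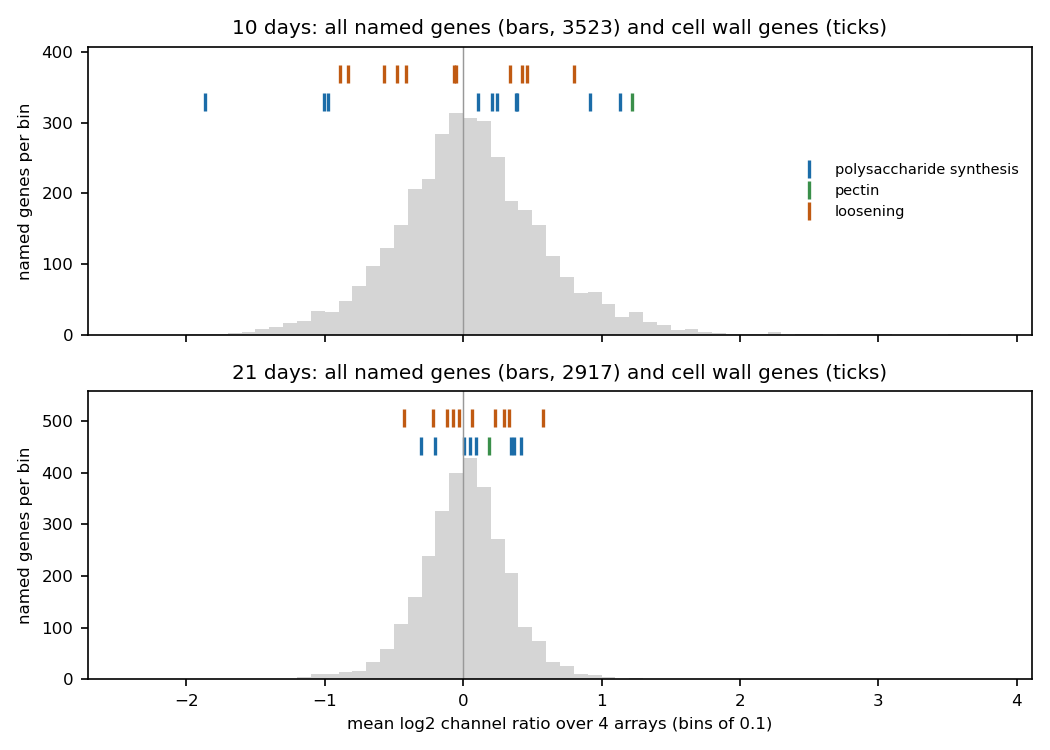
Number of named genes by mean log2 channel ratio in bins of 0.1 (bars) with the cell wall genes as ticks above them, at 10 days in the upper and 21 days in the lower panel. At 10 days the wall genes lie between AT5G25820 at -1.87 and PMEPCRF at 1.22, and at 21 days between -0.43 and 0.58.

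Across the 21 genes Pearson's r between 2 arrays ran from 0.54 to 0.81, against 0.23 to 0.61 across all genes. For arrays 57 with 61 it was lower over the 21 genes, at 0.54 against 0.61. Genes are not independent replicates, and the ratios of an array share its RNA and dyes. The 2 highest values over the 21 genes were those of arrays 60 with 61 and 56 with 60. Single genes still moved far between arrays, CSLC04 from -0.47 on array 56 to 1.02 on array 57.

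Of the 28 single-gene ESTs of the 21 genes, 9 passed in limma over all 11956 ESTs (5 positive, 4 negative), against 17.0% of all ESTs (8.58% positive, 8.4% negative). The count was 3 to 6 with an array left out, 6 with arrays 56 and 60, and 57 and 61, as random blocks, and 20 with 56 and 61, and 57 and 60. Beside those already named, 1 EST of TBL25 and 1 of GH9B7 passed while their genes did not. The passing EST of TBL25 read 1.26, 0.91, 1.33 and 1.06 (adjusted p = 0.00853), and its other ESTs had means of 0.19 and -0.16. All of its ESTs were averaged in the value of the gene. The passing EST of GH9B7 had a mean of -1.22 ± 0.83 (adjusted p = 0.0377) and the other EST -0.44 ± 0.78, with arrays 57 and 61 above 0. The ESTs of PMEPCRF were at 1.52 ± 0.19 and 0.92 ± 0.38, and those of EXPA9 at -0.95 ± 0.77 and -0.83 ± 0.21, of which the second passed (adjusted p = 0.0238). CSLC04 had 3 ESTs with means from -0.01 to 0.55, 1 of which swung from -1.53 on array 56 to 1.85 on array 57. A spot of a gene family can bind transcripts of close relatives, and whether that set the ESTs of a gene apart was not tested. Of all 22 wall genes, 17 rested on 1 EST each.

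**Figure D3:**
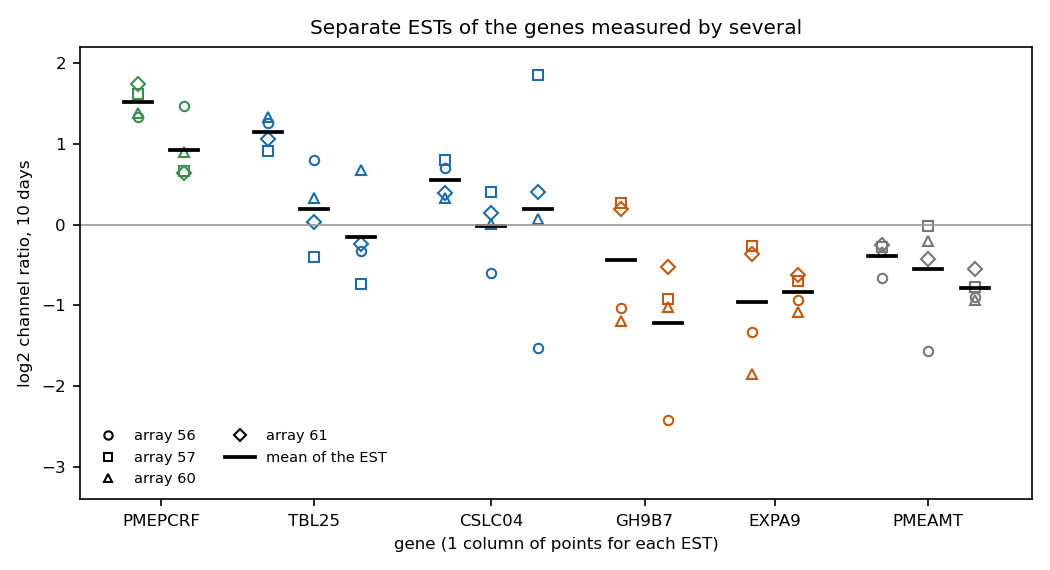
Log2 channel ratio at 10 days (vertical axis) of each EST of the genes measured by several ESTs; symbols are arrays and black lines the mean of the EST. Both ESTs of PMEPCRF lie above 0 on all arrays, while 1 EST of TBL25 stays near 1 and its others straddle 0.

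The same comparison at 21 days covered 19 of the wall genes, since CSLD2, CSLC5 and GH9B15 had no single-gene EST on that array type. None could be told from equal channels: in limma 0 of 19 passed, as did 0.00% of all 2917 genes. At an unadjusted p under 0.05 there was 1 wall gene, or 5.26%, against 9.19% of all genes. This was GH9B13, an endoglucanase near 0 at 10 days, which read 0.73, 0.59, 0.69 and 0.30 on arrays b100, b90, t100 and t90 (mean 0.58 ± 0.19, adjusted p = 0.502). The smallest p-values after it belonged to EXLA1, TBL25, CSLC6 and GH9C2.

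Means of the wall genes at 21 days lay between -0.43 and 0.58, and most genes had arrays on both sides of 0. EXLA1 had the lowest mean, -0.43 ± 0.38, with array t100 alone above 0. TBL25 read 0.40, 0.49, 0.42 and 0.16 (mean 0.37 ± 0.14, limma adjusted p = 0.579) and CSLC6 0.61, 0.29, 0.18 and 0.31 (mean 0.35 ± 0.18, adjusted p = 0.615), both above 0 on every array. AT5G25820 was below 0 on every array, at -0.49, -0.12, -0.41 and -0.20 (adjusted p = 0.670). With GH9B13, these were the 4 of 19 genes with 1 sign on all arrays (21.1%, against 16.8% of all genes, 8.50% positive and 8.33% negative). TBL28 showed the widest spread, from -1.25 on array b100 to 1.34 on array t90, around a mean of 0.00. GH9C2 had a mean of 0.33 ± 0.28, CSLA01 of 0.42 ± 0.82, XTH21 of 0.30 ± 0.49, EXPA8 of 0.23 ± 0.32 and PMEPCRF of 0.19 ± 0.31. The remaining wall genes had means between -0.21 and 0.09.

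By role, the median at 21 days was 0.09 for the 7 synthesis genes without AT5G25820 and 0.02 for the 10 loosening genes, beside 0.02 for all genes. The array medians of the roles, 0.01 to 0.29 and -0.02 to 0.24, overlapped. At 21 days r between 2 arrays ran from -0.31 to 0.33 over the 18 genes without AT5G25820, and from -0.07 to 0.35 over all genes.

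Finally the ratios of the ages were set against each other, with the reservation that age and array type cannot be told apart. PMEPCRF was the 1 of 18 wall genes to pass in limma over the genes of both array types, where 3.63% of 2917 passed (1.37% with a positive and 2.26% with a negative difference). At an unadjusted p under 0.05 there were 4 of 18 (22.2%), against 22.6% of all genes. Its ratio was 1.22 at 10 days and 0.19 at 21 days, a difference of -1.03 on the log2 scale (95% interval -1.58 to -0.48, adjusted p = 0.0449). It lost the call whenever 1 of the 8 arrays was left out (adjusted p from 0.0711 to 0.114), and with arrays 1 and 3, and 2 and 4, of each age as random blocks (0.112). At 21 days array b100 of PMEPCRF was at -0.27 and the other arrays between 0.28 and 0.41, against 1.14 to 1.40 at 10 days. How many of all genes have ages apart in this way was not counted.

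EXLA1 changed side, from 0.80 to -0.43, with a difference of -1.23 (95% interval -1.94 to -0.51) that just missed the threshold (limma adjusted p = 0.0586) and passed without array 57 (0.0369). CSLA03 went from -1.01 to 0.05, a difference of 1.06 (0.42 to 1.70, adjusted p = 0.0640), and GH9C2 from -0.57 to 0.33, a difference of 0.90 (0.24 to 1.56, adjusted p = 0.114). TBL28 and EXPA9, which had passed at 10 days, differed by 0.98 (-0.02 to 1.98) and 0.78 (-0.08 to 1.64) between the ages, intervals that include 0. AT5G25820 stood at -1.87 and -0.30, given without a test for the reason above. TBL25 and CSLA01 had nearly equal gene means at both ages. The differences were -0.02 (-0.60 to 0.55) and 0.03 (-0.87 to 0.94), intervals too wide to show that the ages were alike. For TBL25 the mean averages ESTs that moved in opposite directions. The EST that passed at 10 days went from 1.14 to 0.27, and the others from 0.19 to 0.60 and from -0.16 to 0.24. These moves of single ESTs were not tested.

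**Figure D4:**
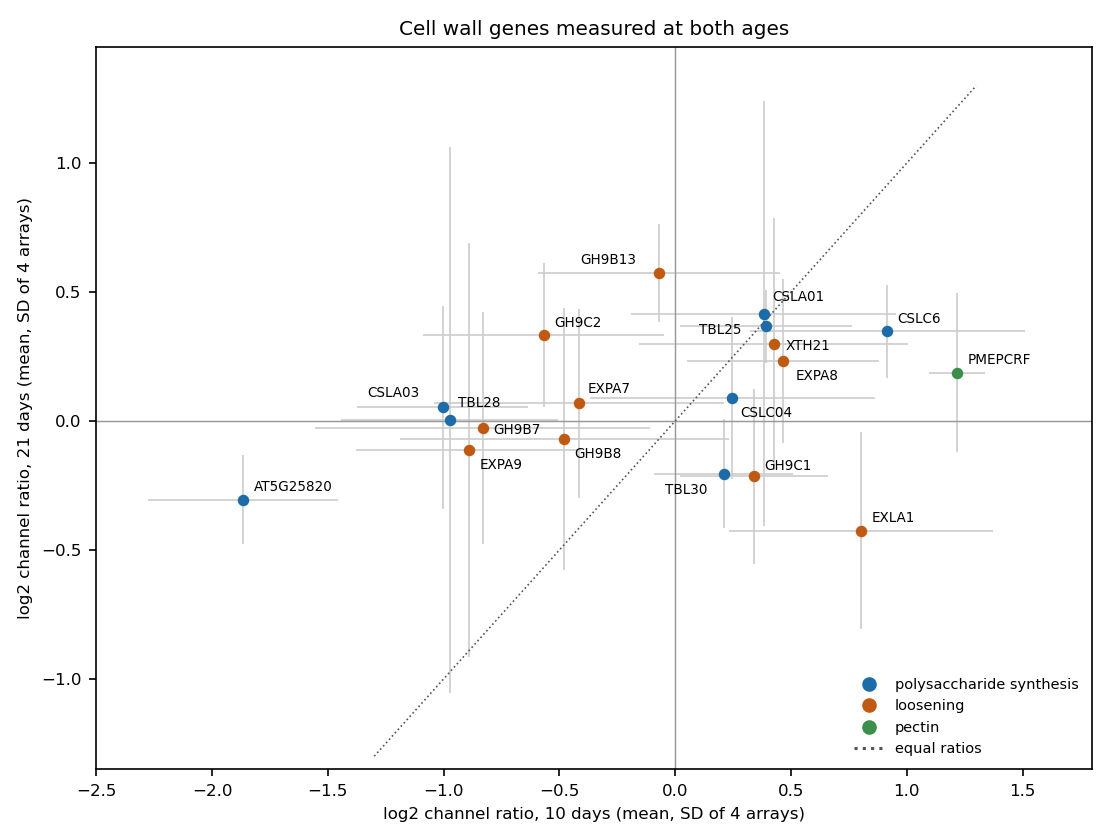
Mean log2 channel ratio at 21 days (vertical axis) against that at 10 days (horizontal axis) for the 19 wall genes measured at both ages; bars are SDs of 4 arrays, colours the roles, and the dotted line marks equal ratios. Most points lie nearer to 0 on the 21-day axis, with CSLC6 and AT5G25820 on the same side at both ages and EXLA1 on opposite sides.

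The mean was smaller in size at 21 days for 16 of 18 wall genes, against 64.9% of all genes. At 10 days their median size was 0.47, against 0.33 for all genes, and the list was made with results of these data known. Genes large at 10 days have more room to be smaller at 21 days, so no conclusion is drawn from this count. The mean was on the same side at both ages for 10 of 18, against 51.6% of all. CSLC6 was positive on all 8 arrays, and 3.43% of all genes had 1 sign on all 8. AT5G25820 was negative on all 8, of which the 4 at 10 days were those it was chosen by. TBL25, EXPA8 and PMEPCRF were positive on 7 of the 8 arrays, and TBL28 negative on 7.

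Of a list of 47 further loci, among them genes of nucleotide sugar and lignin precursor synthesis, 1 was measured, HCT, an acyltransferase of lignin precursor synthesis. It was positive on all 4 arrays at 10 days, from 0.10 to 0.57, and did not pass (limma adjusted p = 0.203).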

How the data were processed

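The authors deposited 1 column of log10 ratios for each array. The base was read from the numbers themselves: taken as powers of 10, values on 7 arrays return ratios with 3 decimals (checked for ratios under 3). Array 56 had been rounded, with 96.9% of its values holding at most 2 decimals. The sources used here do not give dyes, numerator, background correction or spot filters. Column medians were already near 0 on deposit.

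Values were converted to log2, each array was centred on its median, and an EST was kept if no array of its age lacked it. The platform annotation paired 5216 ESTs with a single gene at 10 days and 3910 at 21 days; Entrez identifiers of 5209 and 3905 matched the TAIR10.1 gene annotation, the source of the symbols. All ESTs of the wall genes had a value on every array. ESTs of a gene were averaged. Each age was fitted with limma 3.58.1 (R 4.3.3, statmod 1.5.0) as an intercept with eBayes, the ages by 1 mean each over all 8 arrays, with Benjamini-Hochberg adjustment over all genes or ESTs. Every wall gene is named. Roles were set by family prefix. The listed locus for the xylem gene XCP1 proved to be TPP2, and PRP39 is a splicing factor, so neither was used. Alternatives covered centring, scaling, local medians, eBayes settings, blocks of arrays and left-out arrays. Members, roles and lists were chosen with earlier results of these data known.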

Additional observations from a re-analysis of the deposited data

Results flagged for a closer look

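CSLA03 at 10 days was noted because array 56, at -1.56, stood apart from the other arrays of that age, which lay between -0.85 and -0.80. Among the 43 sets of 4 arrays looked at (each gene at each age, PMEAMT included) it was the only such case, and chance alone gives about 1 in 20. Without array 56 the mean was -0.82 (limma adjusted p = 0.0636).

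PMEPCRF was noted because its ratio differed between the ages in the test of that difference, by -1.03 on the log2 scale from 10 to 21 days (limma adjusted p = 0.0449). The call was lost in 9 of 18 alternatives, among them each that left out 1 array (0.0711 to 0.114).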

How the results depend on the processing

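The count of wall genes past the threshold at 10 days (5 of 21) became 1 or 2 when an array was left out, 8 when the median of each EST and the 36 before and after it by array identifier was removed, and 16 when arrays 56 and 61, and 57 and 60, formed random blocks (estimated correlation -0.80). Over all genes the count of 459 became 782 with local medians removed, 99 to 200 with an array left out, 2022 with that block, and 264 with arrays 56 and 60, 57 and 61 as a block, where EXPA9 lost its call (adjusted p = 0.0655). The 9 ESTs became 20 with arrays 56 and 61, 57 and 60 as a block and 3 to 6 with an array left out. Counts raised by a block with a negative estimated correlation are not read as stronger results, since it narrows the error of the mean. Between the ages the count of 1 became 2 with local medians removed, 3, 0 and 7 with arrays 1 and 2, 1 and 3 or 1 and 4 of each age sharing a block, and 0 or 1 with an array left out; over all genes 106 became 171, 166, 29, 792 and 40 to 93. At 21 days the count stayed 0 under every alternative run. No centring, scaling and quantile normalization, robust eBayes and the median over ESTs kept the counts within 1.5 times. No called wall gene changed sign; other means did so 5 times at 10 days (GH9C1 and CSLC04 among them), 17 at 21 days and 10 between ages. The causes were not tested. No paired analysis was possible because the labels carry no replicate numbers shared between the ages. The files hold no signal over background.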

Other observations

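Wall genes known by a synonym only lay outside the rule and were looked up after the values had been seen. EXGT-A3, also called XTH27, read 0.30, 0.01, 0.80 and -0.01 at 10 days (mean 0.27 ± 0.38, limma adjusted p = 0.378) and had a mean of -0.13 ± 0.56 at 21 days. AT2G31110, also called TBL40, had a mean of -0.25 ± 0.26 at 10 days (limma adjusted p = 0.355).

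At 10 days several wall genes on the negative side were lower on arrays 56 and 60 than on 57 and 61. This held for AT5G25820, TBL28, EXPA9, GH9B7, GH9B8 and GH9C2. It did not hold for the other genes with negative means, CSLA03, EXPA7, GH9B13 and GH9B15. Arrays 56 and 60 were the 2 farthest from 0 for 7 of the 22 wall genes (31.8%) and for 25.5% of all genes. AT5G25820, chosen by its values at this age, is among the 7. The labels do not say whether these arrays share an experiment. For each gene so listed, the median over ESTs with nearby array identifiers was also lower on arrays 56 and 60 than on 57 and 61. For AT5G25820 it was -0.73 and -1.05 against 0.15 and 0.22, and for GH9B8 -0.33 and -0.29 against 0.34 and 0.37. For TBL28 it was -0.20 and -0.35 against -0.06 and 0.07. Genes with positive means were mixed. The local median was higher on arrays 56 and 60 for CSLC6, at 0.80 and 0.31 against 0.05 and -0.11. The same held for EXLA1, at 0.73 and 0.37 against -0.01 and -0.13. For XTH21 it was lower there, at -0.40 and -0.33 against -0.28 and 0.02. The part of this local median in the values of the genes was not tested.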
